A study of Bos grunniens and Bos grunniens x Bos taurus with 2 samples.

Results

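KCNJ8, ABCC9, RGS5 and HIGD1B are 4 genes that mark pericytes, the mural cells that wrap capillaries and small venules. They were taken by their symbols, 1 gene each, from the 26961 genes of the deposited yak annotation (KCNJ8 is ENSBGRG00000003524, ABCC9 is ENSBGRG00000003543, RGS5 is ENSBGRG00000002762 and HIGD1B is ENSBGRG00000024979). Their counts of unique molecular identifiers (UMIs, each standing for 1 captured RNA molecule) were followed across the cells of 2 droplet-based single-cell libraries. The first library came from the testis of a yak (Bos grunniens), which the methods describe as a 4-year-old male. The second came from the testis of a cattle-yak, the cross of Bos grunniens with Bos taurus, whose males are sterile. Both animals were labelled as sexually mature, neither was treated, and each library held the dissociated cells of 1 animal. The label of both samples named germ cells, whereas most of the named clusters below carried markers of somatic cells.

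KCNJ8 encodes Kir6.1, the potassium-conducting pore of the vascular ATP-sensitive potassium (KATP) channel, and ABCC9 encodes SUR2, the regulatory sulphonylurea receptor that surrounds this pore. The open channel hyperpolarises the cell, closes voltage-gated calcium channels and relaxes vascular muscle. RGS5 encodes a GTPase-activating protein that shortens signalling from Gq- and Gi-coupled receptors such as those for angiotensin and endothelin. HIGD1B encodes a small mitochondrial protein of the hypoxia-inducible HIG1 domain family. In many mammalian tissues the 4 transcripts are found together in pericytes, and RGS5 is also known from arterial smooth muscle.

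The yak library held 11991 cells with a median of 2533 UMIs, and the cattle-yak library held 8930 cells with a median of 3155. After limits on genes, UMIs and mitochondrial share, 10324 yak cells (86.1%) and 7092 cattle-yak cells (79.4%) were kept, with 36256997 and 26264974 UMIs. The libraries shared 24 cell barcodes. Cells were clustered within each library without the 4 genes and without the genes of the lists described below, and the 4 genes were used to name no cluster. Levels are given as summed UMIs of a gene per 1000000 UMIs of the cells concerned (CPM), with exact Poisson 95% intervals. Because each group was 1 library from 1 animal, no p-value was computed, and every interval covers counting error alone. Levels were compared between cells and not between genes.

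A pericyte-like cluster was found in each library, with 223 yak cells (2.16% of kept cells, median 5226 UMIs) and 104 cattle-yak cells (1.47%, median 4299.5 UMIs). Of 14 pericyte markers matched by symbol, 7 were enriched in the yak cluster (PDGFRB, NOTCH3, MCAM, FAM162B, TRPC6, EGFLAM and PTH1R). In the cattle-yak cluster 6 were enriched (PDGFRB, NOTCH3, STEAP4, FAM162B, EGFLAM and PTH1R). PDGFRB, the platelet-derived growth factor receptor that pericytes need for recruitment to vessels, stood at 1043 CPM in the yak and 1257 CPM in the cattle-yak cluster. The marker CSPG4 (NG2) was close to zero, with 5 and 4 UMIs, and ENPEP had 0 UMIs in both clusters. NDUFA4L2 had 8 and 2 UMIs, TBX18 1 and 0, HEYL 10 and 5, and STEAP4 had 7 in yak. The 14 pericyte markers summed to 2727 CPM in the yak and 2761 CPM in the cattle-yak cluster. Markers of endothelial cells (EC) summed to 222 CPM in the yak and 203 CPM in the cattle-yak pericyte-like cells, with UMIs of 11 and 9 of the 12 measured markers, PLVAP at 0 in both and TIE1 and ERG at 0 in cattle-yak. Contractile markers of myoid and smooth muscle cells (MC) summed to 17484 CPM in the yak and 5916 CPM in the cattle-yak pericyte-like cells, and the part of these markers in the results was not tested. In yak, MCAM stood at 505 CPM in the pericyte-like cells and 751 CPM in the cells named from the contractile markers (MC-like). TRPC6 stood at 124 and 150 CPM, so neither marker separates these classes. The other enriched yak markers were higher in the pericyte-like cells. In cattle-yak NOTCH3 stood at 47.9 CPM in pericyte-like cells, 41.6 CPM in MC-like cells and 48.6 CPM in a contractile cluster led by TRPC6. It does not separate these classes. MCAM was lower in the pericyte-like cells, at 235 CPM against 549 and 467 CPM. TRPC6 was lower too, at 45.8 CPM against 59.5 and 291 CPM. The other enriched cattle-yak markers were higher in the pericyte-like cells than in both. Mitochondrial genes took 20.1% and 24.5% of the UMIs of the yak and cattle-yak pericyte-like cells, against 14.2% and 18.9% over the kept cells. These shares were the highest of any cluster in each library. With a mitochondrial limit of 20% no pericyte-like cluster was named in cattle-yak. With mitochondrial genes left out of the totals, the log2 ratio of cattle-yak to yak in pericyte-like cells was -0.68 for KCNJ8 in place of -0.76, and -0.56 for HIGD1B in place of -0.64.

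A further cluster in each library carried EC and pericyte markers together and was left without a cell type name. It held 234 yak cells with a median of 11332.5 UMIs and 256 cattle-yak cells with a median of 9899.5 UMIs, deeper than the pericyte-like cells. EC markers summed to 3007 CPM and pericyte markers to 1435 CPM in the yak cells, against 2446 and 1241 CPM in the cattle-yak cells. Both marker lists were present in the same cells, since 90.2% of these yak cells and 95.3% of these cattle-yak cells held at least 3 UMIs of each list, against 12.6% and 9.62% of the pericyte-like cells. Of these cells, 8.97% in the yak and 20.7% in the cattle-yak had a doublet score in the top 10% of their library. This cluster is called the mixed EC and pericyte cluster below, and values are given with and without it.

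KCNJ8, the pore subunit, was highest in the pericyte-like cells of both libraries. In yak it stood at 145 CPM (124 to 168, 178 UMIs) in pericyte-like cells and at 121 CPM (108 to 136, 295 UMIs) in the mixed cluster, and these intervals overlapped. MC-like cells were at 5.05 CPM (19 UMIs), EC-like cells at 2.73 CPM and T/NK-like cells, named from lymphocyte markers, at 1.45 CPM. In cattle-yak it stood at 85.0 CPM (60.4 to 116, 39 UMIs) in pericyte-like cells and 51.3 CPM (42.8 to 61.0, 127 UMIs) in the mixed cluster, again with overlapping intervals. In the cattle-yak MC-like, EC-like and T/NK-like cells it was at 2.12, 1.57 and 1.08 CPM. Levels of the pore gene outside the pericyte-like and mixed cells thus rested on few molecules, for example 19 UMIs over 642 yak MC-like cells.

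ABCC9, the regulatory subunit, was likewise highest in the pericyte-like cells and next in the mixed cluster. Yak pericyte-like cells were at 169 CPM (147 to 194, 208 UMIs) and the mixed cluster at 96.9 CPM (84.9 to 110, 236 UMIs), and the intervals did not overlap. In yak MC-like, EC-like and T/NK-like cells ABCC9 was at 3.98, 3.46 and 0.395 CPM. Cattle-yak pericyte-like cells were at 107 CPM (79.0 to 141, 49 UMIs) and the mixed cluster at 52.9 CPM (44.2 to 62.8, 131 UMIs), also apart. In the cattle-yak MC-like, EC-like and T/NK-like cells it was at 5.95, 0.522 and 0.718 CPM. ABCC9 was therefore lower in MC-like than in pericyte-like cells of both animals.

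RGS5, the G-protein regulator, was high in pericyte-like cells and was also found at a high level in contractile cells. In yak it stood at 1758 CPM (1685 to 1834, 2163 UMIs) in pericyte-like cells, 1057 CPM (1016 to 1099) in the mixed cluster and 557 CPM in MC-like cells. A yak cluster led by FN1, which received no name and whose cells had a median of 1052 UMIs with 39.0% of them in the top 10% of doublet scores, came next at 379 CPM. In cattle-yak RGS5 stood at 1763 CPM (1643 to 1888, 809 UMIs) in pericyte-like cells, 802 CPM (767 to 838) in the mixed cluster and 679 CPM in an unnamed contractile cluster led by TRPC6. Cattle-yak MC-like cells were at 200 CPM, a level whose interval overlapped that of the unnamed cell cycle cluster at 222 CPM. RGS5 was at 49.1 and 43.3 CPM in the EC-like cells of yak and cattle-yak, and at 12.3 and 11.1 CPM in their T/NK-like cells.

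HIGD1B, the HIG1 domain gene, was also highest in pericyte-like cells. In yak it stood at 2082 CPM (2002 to 2164, 2562 UMIs) in pericyte-like cells, 1351 CPM (1305 to 1398) in the mixed cluster, 174 CPM in the FN1-led cluster, 88.3 CPM in an unnamed contractile cluster led by TNNI1, a slow skeletal troponin, and 80.2 CPM in MC-like cells. In cattle-yak it stood at 1333 CPM (1230 to 1443, 612 UMIs) in pericyte-like cells, 705 CPM (672 to 739) in the mixed cluster, 212 CPM in the TRPC6-led cluster, 126 CPM in the cell cycle cluster, 48.2 CPM in a TNNI1-led cluster and 15.7 CPM in MC-like cells. The EC-like cells of yak and cattle-yak were at 42.8 and 21.4 CPM, and their stromal-like cells at 64.4 and 22.6 CPM. T/NK-like cells were at 10.9 and 5.03 CPM.

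Among the classes of at least 50 cells, 14 in yak and 13 in cattle-yak, pericyte-like cells ranked first for all 4 genes in both libraries and the mixed cluster ranked second. After these, KCNJ8 was highest in yak in the unnamed cell cycle cluster, at 22.0 CPM, with 6.92 CPM in that of cattle-yak. Yak B cell-like cells held KCNJ8 at 10.6 CPM (5 UMIs), RGS5 at 51.1 CPM and HIGD1B at 38.3 CPM, and 1 of these 113 cells held all 4 members. In stromal-like cells of yak and cattle-yak KCNJ8 was at 5.88 and 3.17 CPM and ABCC9 at 5.34 and 5.29 CPM. In germ-like cells KCNJ8 was at 4.57 CPM in yak and had 0 UMIs in cattle-yak, which allows up to 6.20 CPM, and RGS5 was at 82.0 and 20.2 CPM. Lymphatic EC-like cells held RGS5 at 30.3 and 2.49 CPM and HIGD1B at 8.08 and 1.66 CPM, and macrophage-like cells held RGS5 at 13.9 and 27.1 CPM. An unnamed yak cluster led by WFDC2, an epithelial gene, held RGS5 at 20.5 CPM and 0 UMIs of the other members, which allows up to 15.1 CPM of each. The interval of the pericyte-like level lay above that of the mixed cluster for ABCC9, RGS5 and HIGD1B in both animals, and overlapped it for KCNJ8 in both. The pericyte-like and mixed cells together were few, but they held most of the KATP molecules of the kept cells. Cells outside the limits, described below, held 58.3% of all KCNJ8 and 56.7% of all ABCC9 UMIs in yak, and 51.1% and 59.7% in cattle-yak. They held 45.6% and 43.2% of the RGS5 UMIs of yak and cattle-yak, and 53.8% and 49.8% of the HIGD1B UMIs. Of the UMIs of all genes they held 24559603 of 60816600 in yak and 17509867 of 43774841 in cattle-yak. In yak the mixed cluster held 49.9% of the KCNJ8 and 43.5% of the ABCC9 UMIs of the kept cells, and the pericyte-like cells held 30.1% and 38.4%. In cattle-yak the mixed cluster held 56.2% and 50.2%, and the pericyte-like cells 17.3% and 18.8%. The share of RGS5 in these cells was smaller, with 31.1% and 38.2% of its UMIs in the mixed cluster of yak and cattle-yak and 26.1% and 15.6% in the pericyte-like cells.

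**Figure D1:**
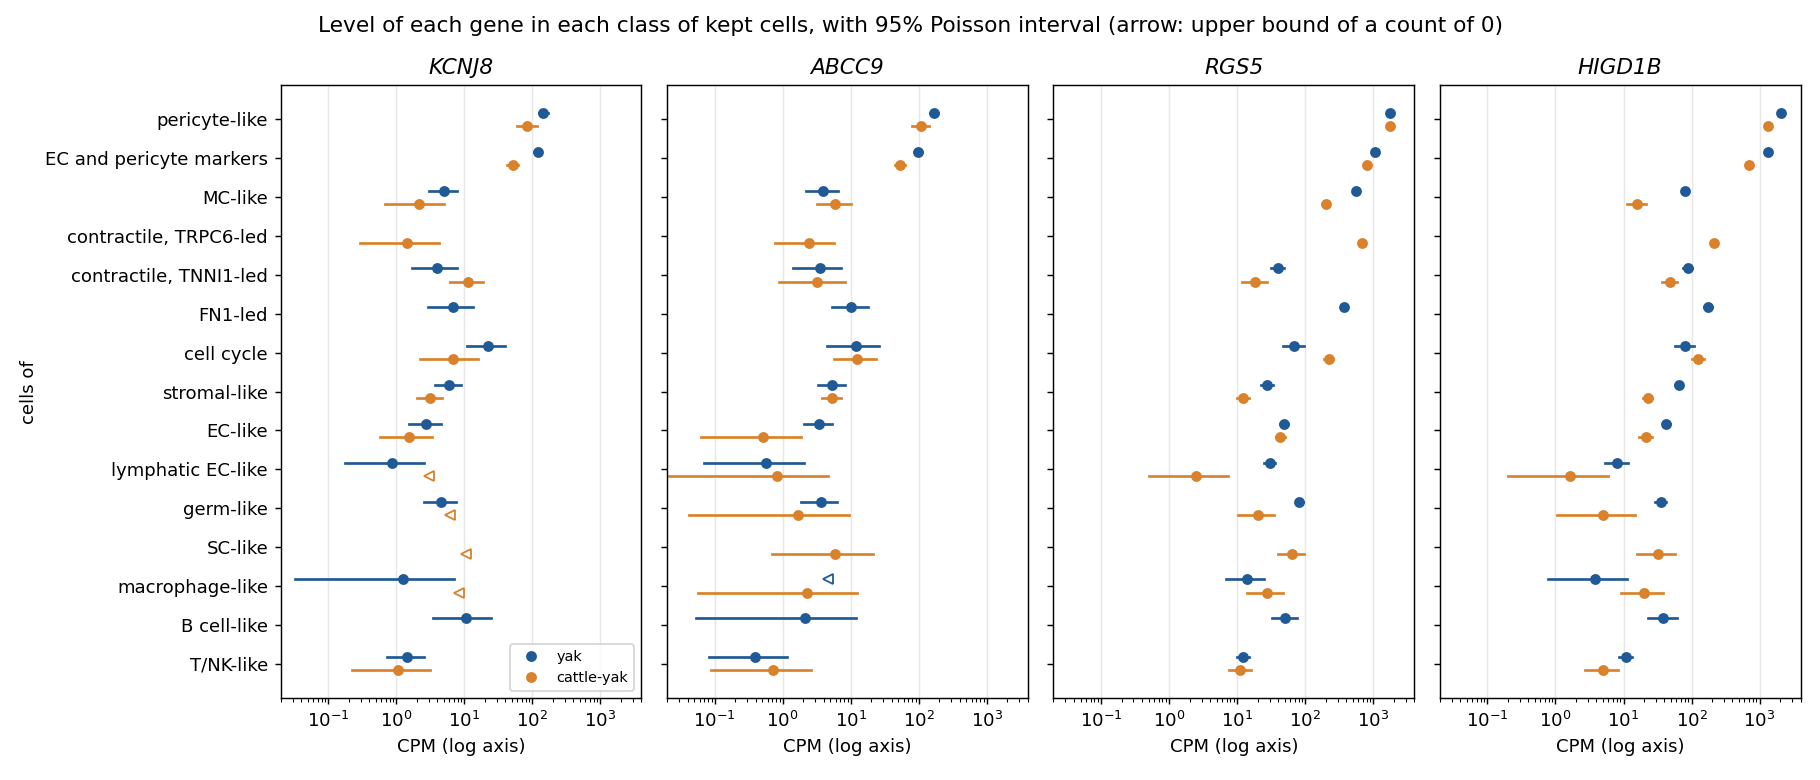
Level of each gene in the classes of at least 50 kept cells (the unnamed WFDC2-led yak cluster is left out), in CPM on a log axis, for the yak and the cattle-yak library. Points are summed levels of 1 library, bars are exact Poisson 95% intervals and an arrow marks the upper bound where no UMI was counted. Pericyte-like cells stand first and the mixed EC and pericyte cluster second for each gene, and RGS5 is at 557 CPM in yak MC-like cells.

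Against all other kept cells, the 4 genes were 10.1 to 17.7 times higher in yak pericyte-like cells and 10.4 to 13.0 times higher in cattle-yak ones. In yak, KCNJ8 was 12.3 times higher (10.2 to 14.7), ABCC9 17.7 times (14.8 to 21.1), RGS5 10.1 times (9.58 to 10.6) and HIGD1B 15.4 times (14.7 to 16.1). Ranked by this ratio among 11099 genes with at least 100 summed counts, ABCC9 came 2nd, HIGD1B 3rd, KCNJ8 8th and RGS5 14th. In cattle-yak, KCNJ8 was 11.7 times higher (8.08 to 16.6), ABCC9 13.0 times (9.32 to 17.8), RGS5 10.4 times (9.60 to 11.2) and HIGD1B 12.9 times (11.8 to 14.1). Here HIGD1B came 4th, ABCC9 5th, KCNJ8 6th and RGS5 7th of 9379 genes. A gene was counted as higher or lower where its log2 ratio, with 1 CPM added to each side, was at least 1 in size. By this count 4.55% of the tested genes were higher and 27% lower in yak, and 4.2% higher and 21.6% lower in cattle-yak, while 4 of 4 members were higher in each. The other kept cells include the mixed cluster, and without it the log2 ratios of KCNJ8, ABCC9, RGS5 and HIGD1B were 4.98, 5.41, 4.00 and 5.52 in yak in place of 3.51, 4.01, 3.32 and 3.93.

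The members separated pericyte-like from MC-like cells to different degrees. In yak, KCNJ8 was 28.7 times (17.8 to 48.7), ABCC9 42.4 times (25.1 to 77.2) and HIGD1B 26.0 times (23.0 to 29.3) higher in pericyte-like cells, whereas RGS5 was 3.16 times higher (2.97 to 3.35). RGS5 and HIGD1B, with counts above the minimum on both sides, were both higher by the fold, where 6.73% of 4371 tested genes were higher and 7.69% lower. KCNJ8 and ABCC9 reached the minimum of 100 summed counts only through the pericyte-like cells (178 and 208 UMIs against 19 and 15), so their being called higher was fixed by the filter and is not read against that share. In cattle-yak, RGS5 was 8.82 times (7.87 to 9.91) and HIGD1B 84.8 times (60.8 to 122) higher, where 5.7% of 2720 genes were higher and 11.4% lower. The share is read against RGS5 alone there, since HIGD1B had 37 UMIs in MC-like cells and passed the filter through the pericyte-like ones. KCNJ8 and ABCC9 had under 100 summed counts in that comparison and were not among the tested genes, and their ratios there were 40.0 (15.8 to 130) and 17.9 (9.75 to 35.2). MC-like cells were made of different clusters in the libraries: cluster 16 in yak, and clusters 12 and 17 in cattle-yak, where the TRPC6-led contractile cells formed cluster 13 of their own. All 42 cells of cattle-yak cluster 17 were in the top 10% of doublet scores. Without the cells of such scores the log2 ratio of HIGD1B to cattle-yak MC-like cells was 6.92 in place of 6.32. For that reason MC-like levels were not compared between the animals. The markers that named MC-like cells are shared by peritubular myoid and vascular smooth muscle cells and do not separate them.

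At a finer clustering, described after the clusters had been seen, the contractile cells of both libraries divided into a cluster with TRPC6 among its 10 leading genes (RERGL came first in yak) and a cluster with DES, the muscle intermediate filament, among them (after NDRG4 in yak and FHL5 in cattle-yak). RGS5 was 1199 CPM in the 172 yak cells of the TRPC6 cluster and 359 CPM in the 466 cells of the DES cluster, a ratio of 3.34 (3.06 to 3.64). In cattle-yak it was 675 and 202 CPM, again a ratio of 3.34 (2.99 to 3.73). The finer yak TRPC6 cluster (1128 to 1274 CPM) lay above the yak mixed cluster (1016 to 1099 CPM) for RGS5. The second rank of the mixed cluster thus holds among the classes only. HIGD1B was 275 against 17.9 CPM in yak (15.4 times, 11.3 to 21.3) and 208 against 17.5 CPM in cattle-yak (11.9 times, 8.45 to 17.2). KCNJ8 did not differ beyond counting error, with 4.57 against 5.26 CPM in yak (ratio 0.869, 0.210 to 2.73) and 1.47 against 2.43 CPM in cattle-yak (ratio 0.604, 0.0938 to 3.11). ABCC9 was likewise at 3.43 against 4.20 CPM (ratio 0.815, 0.148 to 3.02) and 2.45 against 5.35 CPM (ratio 0.458, 0.125 to 1.43). These intervals are wide, so that at this depth a difference of up to 2.73-fold upwards for KCNJ8 in yak was within counting error, and in cattle-yak the KCNJ8 interval overlapped that of RGS5.

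**Figure D2:**
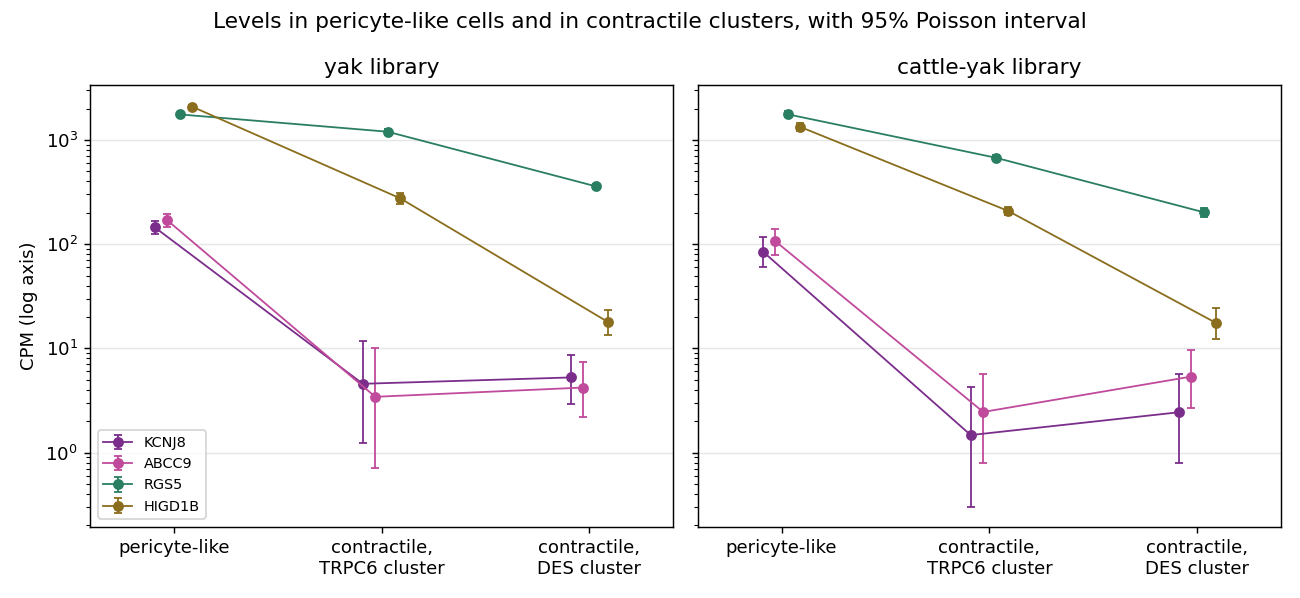
Level of each gene, in CPM on a log axis, in pericyte-like cells and in the finer TRPC6 and DES contractile clusters of each library, with exact Poisson 95% intervals and lines that guide the eye. RGS5 and HIGD1B are higher in the TRPC6 than in the DES cluster (1199 against 359 CPM and 275 against 17.9 CPM in yak), while KCNJ8 and ABCC9 stay at or below 5.35 CPM in both. Levels of different genes are not comparable.

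Against EC-like cells, the ratios in yak were 53.0 (31.3 to 96.7) for KCNJ8, 48.9 (30.5 to 82.8) for ABCC9, 35.8 (31.5 to 40.7) for RGS5 and 48.7 (42.6 to 55.9) for HIGD1B, where 7.26% of 5645 genes were higher by the fold. KCNJ8 and ABCC9 again reached the minimum count only through the pericyte-like cells (15 and 19 UMIs in EC-like cells), so that this share is read against RGS5 and HIGD1B alone. In cattle-yak 5.07% of 4297 genes were higher. RGS5 and HIGD1B were 40.7 and 62.3 times higher there, HIGD1B passing the filter only through the pericyte-like cells (82 UMIs in EC-like cells), and the ABCC9 ratio of 205 rested on 2 UMIs in EC-like cells (interval 53.7 to 1736). Against the mixed cluster the differences were smaller than against EC-like cells. The highest log2 ratio of a member there was 1.13, for RGS5 in cattle-yak, which ranked 90th of 3228 tested genes. ABCC9 in cattle-yak followed at 0.999 and ranked 123rd. The share of all genes past the fold was not computed for this comparison. In yak the ratios were 1.19 for KCNJ8 (0.986 to 1.44), 1.74 for ABCC9 (1.44 to 2.11), 1.66 for RGS5 (1.57 to 1.76) and 1.54 for HIGD1B (1.46 to 1.62). In cattle-yak they were 1.66 (1.13 to 2.39), 2.02 (1.42 to 2.82), 2.20 (2.02 to 2.39) and 1.89 (1.72 to 2.07).

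To set the genes on a common depth, each cell was thinned to 1000 UMIs at random and shallower cells were left out. Among 218 yak pericyte-like cells, KCNJ8 was then seen in 14.2% (exact binomial 95% interval 9.87 to 19.6), ABCC9 in 17.9% (13.0 to 23.6), RGS5 in 74.8% (68.5 to 80.4) and HIGD1B in 78.0% (71.9 to 83.3). Without thinning, the shares of the 223 cells were 38.6%, 47.1%, 94.2% and 94.2%. Among 102 cattle-yak pericyte-like cells the thinned shares were 6.86% (2.80 to 13.6), 10.8% (5.51 to 18.5), 81.4% (72.4 to 88.4) and 62.7% (52.6 to 72.1), and without thinning 25.0%, 36.5%, 97.1% and 88.5% of 104 cells. Free RNA gives UMIs in cells that do not express a gene, so T/NK-like cells, which should lack all 4, served as background (all 54 cells of cattle-yak T/NK-like cluster 20 were in the top 10% of doublet scores). In the 3422 thinned yak T/NK-like cells, whose median before thinning was 1931 UMIs, the shares were 0.146%, 0.0292%, 1.17% and 0.935%. In the 1084 cattle-yak ones (median 2291 UMIs) they were 0.0923% for KCNJ8, 0 for ABCC9, which allows up to 0.277%, 0.923% for RGS5 and 0.277% for HIGD1B.

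In 633 yak MC-like cells the thinned shares were 0.790% for KCNJ8 and 0.316% for ABCC9, against 35.1% for RGS5 and 6.64% for HIGD1B. In the 429 cattle-yak MC-like cells KCNJ8 was seen in 0 cells, which allows a share of up to 0.699%, ABCC9 in 0.699%, RGS5 in 16.1% and HIGD1B in 1.40%. The cattle-yak TRPC6-led cells held RGS5 in 45.4% and HIGD1B in 15.3% of 412 cells, but KCNJ8 in 0 and ABCC9 in 0.243%. RGS5 was thus seen well above the T/NK-like background in these contractile cells of both animals. The KATP subunits were at shares below 1% there. In CPM, where more molecules enter, yak MC-like cells were above yak T/NK-like cells for KCNJ8 (5.05, 3.04 to 7.88, against 1.45, 0.724 to 2.59) and for ABCC9 (3.98, 2.23 to 6.57, against 0.395, 0.0815 to 1.16). In cattle-yak the intervals were apart for ABCC9 (3.25 to 9.98 against 0.0870 to 2.59) and overlapped for KCNJ8.

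**Figure D3:**
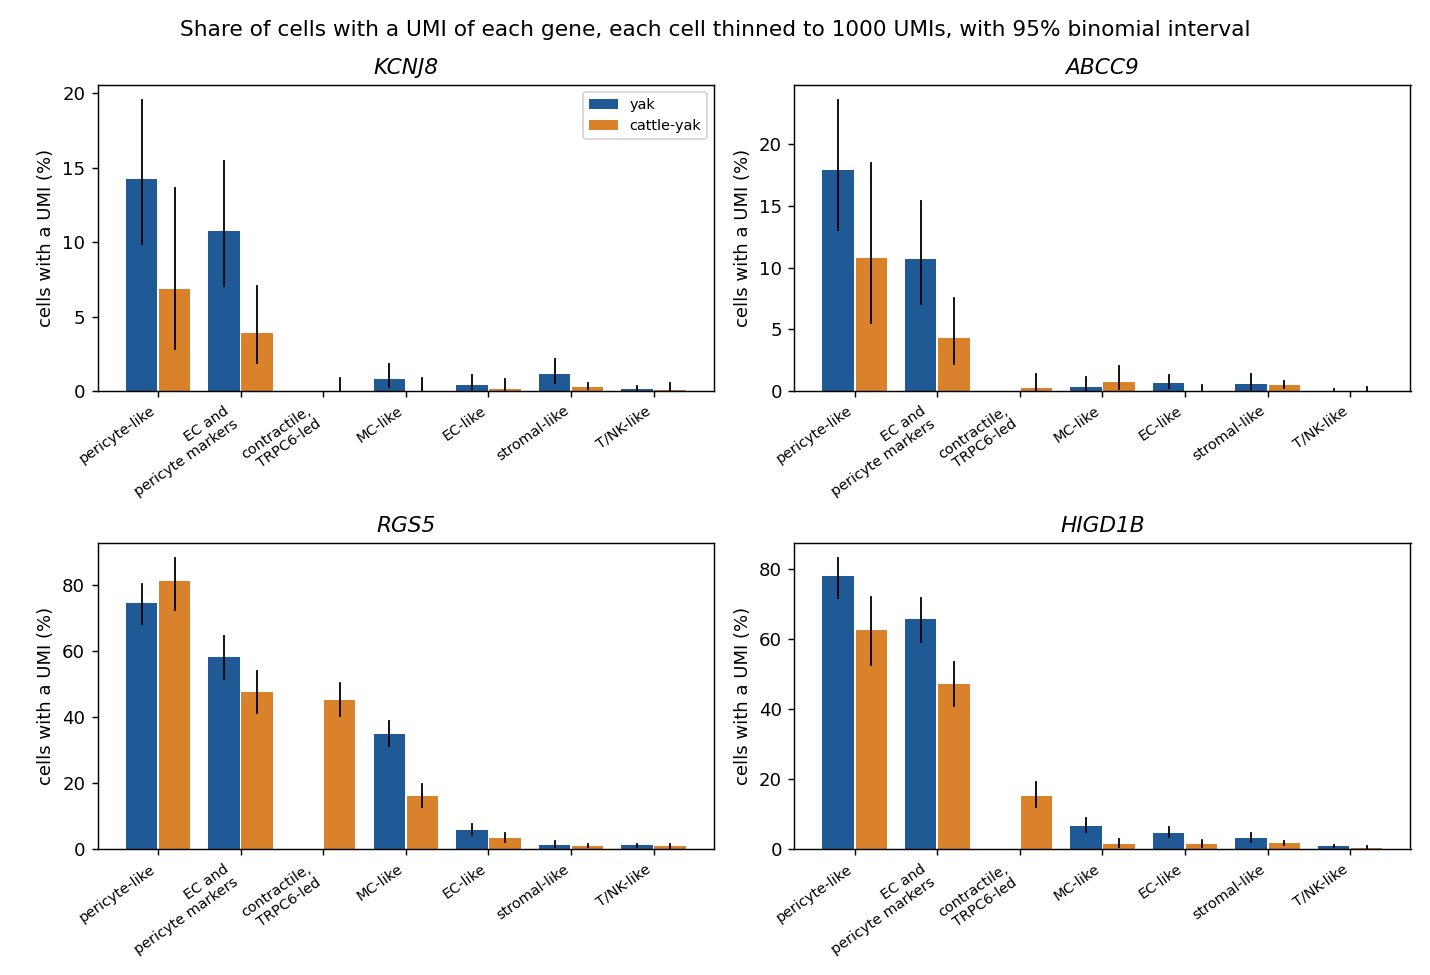
Share of cells, in percent, with at least 1 UMI of each gene after each cell was thinned to 1000 UMIs, by class and library, with exact binomial 95% intervals. RGS5 and HIGD1B were seen in 62.7% to 81.4% of pericyte-like cells and KCNJ8 and ABCC9 in 6.86% to 17.9%, while T/NK-like cells stayed at or below 1.17%. The yak library has no separate TRPC6-led cluster at this setting.

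The members varied among the pericyte-like cells. In yak, KCNJ8 ranged from 0 to 8 UMIs a cell, with 137 of 223 cells at 0, and ABCC9 from 0 to 11 with 118 cells at 0. RGS5 ranged from 0 to 40 (median 8) and HIGD1B from 0 to 45 (median 9), each with 13 cells at 0. In cattle-yak, KCNJ8 was at 0 in 78 of 104 cells and reached 6, and ABCC9 was at 0 in 66 cells and reached 3. RGS5 ranged from 0 to 33 (median 6) with 3 cells at 0, and HIGD1B from 0 to 32 (median 4.5) with 12 cells at 0.

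The subunits of the channel were found together in part of these cells. In yak, 15 of 218 thinned cells held a UMI of both KCNJ8 and ABCC9, where 5.55 would be expected if the genes were independent. At a thinning to 500 UMIs the count was 4 against 1.61. In cattle-yak 2 of 102 cells held both at 1000 UMIs against 0.755, and 0 of 104 at 500 UMIs against 0.337, so that the counts there are too small to read. Over all kept yak cells without thinning, 148 held both subunits, of which 57 (38.5%) were pericyte-like and 80 (54.1%) in the mixed cluster. In cattle-yak 52 cells held both, with 12 (23.1%) pericyte-like and 38 (73.1%) in the mixed cluster. All 4 members were seen in 142 yak and 48 cattle-yak cells. RGS5 and HIGD1B were met in 135 thinned yak cells against 127 expected. With 163 and 170 of the 218 cells holding each gene, most of this overlap was set by those counts. It is therefore not read as independence. For the other pairs of yak cells the counts were 25 against 23.2 for KCNJ8 with RGS5 and 30 against 24.2 for KCNJ8 with HIGD1B. They were 28 against 29.2 for ABCC9 with RGS5 and 35 against 30.4 for ABCC9 with HIGD1B.

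The ratio of HIGD1B to RGS5 UMIs differed between classes within a library by more than counting error. In yak it was 1.18 HIGD1B UMIs per RGS5 UMI in pericyte-like cells (1.12 to 1.25) and 0.144 in MC-like cells (0.127 to 0.163). In TNNI1-led contractile cells it was 2.24 (1.71 to 2.96), in stromal-like cells 2.32 (1.83 to 2.95), and in T/NK-like cells 0.892 (0.656 to 1.21). In cattle-yak it was 0.756 in pericyte-like cells (0.680 to 0.841), 0.0787 in MC-like cells, 0.313 in the TRPC6-led cells and 2.61 in the TNNI1-led cells (1.59 to 4.42). KCNJ8 and ABCC9 together gave 0.178 UMIs per RGS5 UMI in yak pericyte-like cells and 0.0162 in MC-like cells. In cattle-yak these ratios were 0.109 and 0.0404, with 0.00567 in the TRPC6-led cells. Pericyte-like cells did not have the highest of these ratios. Stromal-like cells had 0.404 (0.275 to 0.583) in yak and 0.688 (0.493 to 0.956) in cattle-yak, and cattle-yak TNNI1-led cells 0.783 (0.398 to 1.52). The RGS5 intervals of these cattle-yak classes (12.3 and 18.5 CPM) overlapped that of the T/NK-like background (11.1 CPM), so these ratios are not read as subunit use. The T/NK-like ratios, 0.151 (0.0792 to 0.265) in yak and 0.161 (0.0490 to 0.418) in cattle-yak, overlapped the pericyte-like ones. EC-like cells lay lower, at 0.126 in yak (0.0854 to 0.180) and 0.0482 in cattle-yak (0.0205 to 0.0972), but these intervals overlapped the pericyte-like ones too.

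Between the libraries, the comparison is of 1 yak with 1 cattle-yak and not of the crosses. In pericyte-like cells KCNJ8 was 1.70 times (1.20 to 2.47), ABCC9 1.58 times (1.15 to 2.21) and HIGD1B 1.56 times (1.43 to 1.71) higher in yak than in cattle-yak, while RGS5 did not differ beyond counting error (ratio 0.997, 0.919 to 1.08). No member reached a log2 ratio of 1, and 5.27% of 1880 genes were lower in cattle-yak by that measure. The log2 ratios of cattle-yak to yak were -0.76 for KCNJ8, -0.66 for ABCC9, 0.00 for RGS5 and -0.64 for HIGD1B, beside a median of -0.16 over all tested genes. These values depended on how finely the cells were clustered. At a Leiden resolution of 0.5 the yak pericyte-like cluster took in the mixed cells (530 cells), while the cattle-yak one did not (105 cells). The log2 ratio was then -0.071 for ABCC9 (-0.53 to 0.36), which ended its difference. For RGS5 it was 0.48 (0.37 to 0.59), higher in cattle-yak. Both ratios compare unlike sets of cells and are not read as differences between the libraries. In the mixed cluster the 4 genes were 2.36 times (1.91 to 2.93), 1.83 times (1.47 to 2.29), 1.32 times (1.24 to 1.40) and 1.92 times (1.81 to 2.03) higher in yak. KCNJ8 alone passed the fold there, at a log2 ratio of -1.22, where 2.21% of 4706 genes were lower in cattle-yak. In EC-like cells HIGD1B was 2.00 times higher in yak (1.55 to 2.60) and RGS5 1.13 times (0.931 to 1.38). HIGD1B was also higher in yak in other classes, by 2.85 times in stromal-like cells (2.33 to 3.48), 4.87 times in lymphatic EC-like cells (1.23 to 42.2, 2 UMIs in cattle-yak) and 2.18 times in the T/NK-like cells used as background (1.23 to 4.15). RGS5 was 2.26 times higher in yak stromal-like cells (1.69 to 3.02), 12.2 times in lymphatic EC-like cells (4.05 to 59.9, 3 UMIs in cattle-yak) and 1.10 times in T/NK-like cells (0.726 to 1.71). The yak pericyte-like cells held 17484 CPM of MC markers against 5916 CPM in cattle-yak, and the yak EC-like cells 2599 CPM against 566 CPM. The part of these in the library differences was not tested.

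**Figure D4:**
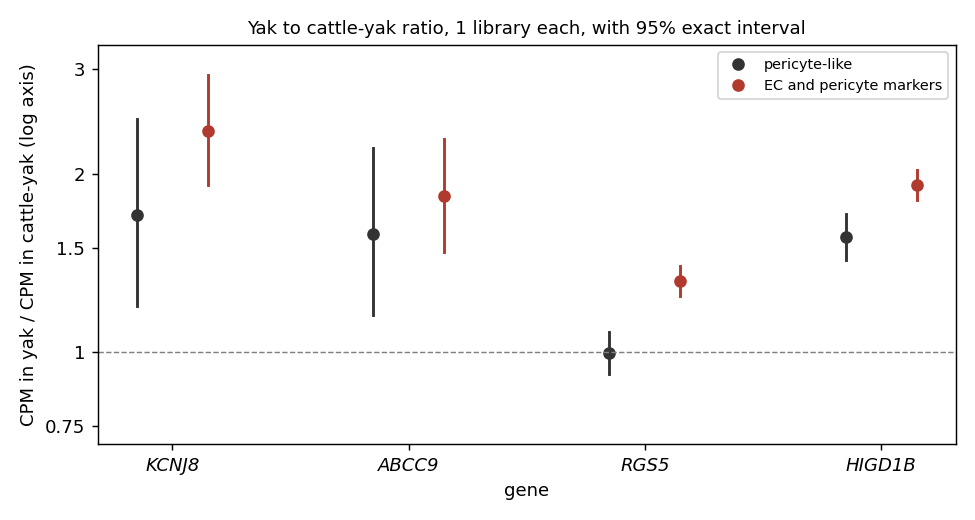
Ratio of yak to cattle-yak levels of each gene in pericyte-like cells and in the mixed EC and pericyte cluster, on a log axis, with exact 95% intervals that cover counting error only. KCNJ8, ABCC9 and HIGD1B lie above 1 in the pericyte-like cells (1.70, 1.58 and 1.56) and in the mixed cluster (2.36, 1.83 and 1.92), and RGS5 lies at 0.997 in the pericyte-like cells. At a Leiden resolution of 0.5 the ABCC9 difference in pericyte-like cells ended and RGS5 was higher in cattle-yak. There the yak cluster took in the mixed cells and the cattle-yak one did not, so that unlike sets of cells were compared.

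The other genes of the vascular potassium channel, RGS and vasomotor pathways were read from lists, against all other kept cells unless stated. Their counts stand beside the shares over all tested genes given above, 4.55% higher and 27% lower in yak and 4.2% and 21.6% in cattle-yak. KCNJ11 and ABCC8, the Kir6.2 and SUR1 subunits of the pancreatic form of the KATP channel, could not be tested. KCNJ11 had 0 UMIs in the kept cells of both libraries, and ABCC8 had 0 in pericyte-like cells and 40 and 39 in all the others of yak and cattle-yak. Of 17 other potassium channel genes of vascular muscle, 4 were tested in each library, with 0 higher and 3 lower in pericyte-like than in all other kept cells, and a median log2 ratio of -1.61 in yak and -2.13 in cattle-yak against -0.39 and -0.21 over all genes. KCNMB1, the beta subunit of the large-conductance calcium-activated channel, had log2 ratios of -1.94 and -1.56. KCNMA1, its pore subunit, had 0 UMIs in pericyte-like cells and 262 and 142 in the others. At 3 UMIs the depth of the cattle-yak pericyte-like cells allows 6.54 CPM of KCNMA1, above its 5.50 CPM elsewhere. A lower level was therefore not detectable there. KCNMA1 passed the minimum count only through the other cells in both libraries, and it is among the 3 lower genes of each. Its being called lower is therefore not read against the shares over all genes. The medians of -1.61 and -2.13 include KCNMA1 as well, and that of cattle-yak is not read. Outside the list, and chosen after its values were seen, KCNK5, a potassium leak channel gene, was among the 3 leading genes of the yak pericyte-like cluster. Against MC-like cells KCNMB1, the 1 gene of the list tested in each library, had log2 ratios of -3.69 and -3.51.

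Besides RGS5, 18 of 20 other RGS genes were matched. In yak 10 were tested, with 3 higher (against 4.55% of all genes, RGS16 at a log2 ratio of 2.97, RGS4 at 2.24 and RGS7 at 1.30) and 5 lower (against 27%), among them RGS1, a lymphocyte gene, at -3.73. In cattle-yak 9 were tested, with 0 higher and 4 lower (against 4.2% and 21.6%), and a median of -0.82 against -0.60 in yak. RGS4, which lies beside RGS5 in the gene order of the RefSeq yak assembly, had 81.3 CPM in yak pericyte-like cells and 8.72 CPM (4 UMIs) in cattle-yak ones. Against MC-like cells RGS7 was lower in yak, at -1.14. Of the 4 RGS genes tested there, 0 were higher and 1 lower, beside 6.73% and 7.69% of all genes. In cattle-yak 1 was tested, and it passed the fold in neither direction. HIGD1C, with 1 UMI in yak pericyte-like cells, was the single other HIG1 family gene matched and had too few counts for the test.

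Of the 14 matched receptors that contract vascular muscle 4 were tested, and 3 were higher in pericyte-like cells of both libraries with 0 lower, where 4.55% and 4.2% of all genes were higher (median log2 ratio 1.89 in yak and 1.87 in cattle-yak). They were EDNRB, the endothelin B receptor, at 2.30 in yak and 1.91 in cattle-yak, AGTR1, the angiotensin type 1 receptor, at 2.30 and 3.35, and TBXA2R, the thromboxane receptor, at 1.48 and 1.82. EDNRA, the endothelin A receptor, had values of -0.72 and -0.52. Against MC-like cells 1 gene of this list was tested in each library, and it passed the fold in neither.

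Of the relaxation receptors and cyclic nucleotide enzymes, all 20 listed were matched. In yak 17 were tested (8 higher and 5 lower, median 0.81) and in cattle-yak 14 (5 higher and 3 lower, median 0.91). The list holds phosphodiesterases, which break down cyclic nucleotides, beside enzymes that form them. Its counts and medians therefore do not measure relaxation. The lower shares of this list lay near those over all genes, 27% and 21.6%, and its higher shares above 4.55% and 4.2%. GUCY1A1 and GUCY1B1, the subunits of the nitric oxide receptor guanylate cyclase, were higher in both, at 2.81 and 3.13 in yak and 2.71 and 2.66 in cattle-yak. RAMP1, a partner of the receptor for calcitonin gene-related peptide, was at 2.87 and 2.23, while CALCRL, the receptor itself, was lower at -2.65 in yak and rested on 1 UMI in cattle-yak pericyte-like cells. VIPR2, a receptor for vasoactive intestinal peptide, was at 1.40 and 1.03. ADORA2A, the adenosine receptor that raises cyclic AMP, was at 2.64 in cattle-yak and 0.76 in yak. Against MC-like cells 9 genes of this list were tested in yak, with 2 higher and 3 lower, beside 6.73% and 7.69% of all genes. In cattle-yak 10 were tested, with 3 higher and 2 lower, beside 5.7% and 11.4% of all genes. The medians were -0.44 in yak and -0.16 in cattle-yak. Both guanylate cyclase subunits were again higher than in the MC-like cells of each animal, at 1.02 and 1.13 in yak and 1.80 and 1.55 in cattle-yak. The phosphodiesterases PDE5A and PDE3A, which break down cyclic nucleotides, were lower than in MC-like cells, at -1.56 and -1.35 in yak and -1.29 and -1.13 in cattle-yak.

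The genes whose levels most resembled those of each member were ranked by Pearson correlation of log2(CPM + 1) over the 43 clusters of at least 20 cells of both libraries, among 10488 genes. Clusters of 1 library share its depth and free RNA, so the values describe these data only. KCNJ8 was most like RXFP1, the relaxin receptor (r = 0.853), HIGD1B (0.824), FAM162B (0.799), ENSBGRG00000000121 (0.784), which has no symbol, and ABCC9 (0.760). ABCC9 was most like HIGD1B (0.822), PDGFRB (0.803), RXFP1 (0.799), ENSBGRG00000016220 (0.798) and POSTN (0.797). HIGD1B was most like FAM162B (0.881), ENSBGRG00000016220 (0.861), RXFP1 (0.836), KCNJ8 (0.824) and RGS5 (0.823). RGS5 was most like ANO3 (0.864), MCAM (0.857), ADAMTS4 (0.845), RAMP1 (0.845) and MYBPHL (0.842), with HIGD1B in 7th (0.823), ABCC9 in 31st and KCNJ8 in 104th place. RXFP1 stood at 74.0 CPM in yak and 39.2 CPM in cattle-yak pericyte-like cells, and at 5.84 and 0.425 CPM in MC-like cells.

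KCNJ8 and ABCC9 lie next to each other in the RefSeq gene order, as KCNJ11 and ABCC8 do. CMAS, on the other side of ABCC9, had log2 ratios of -0.08 in yak and 0.00 in cattle-yak between pericyte-like and other kept cells. NUF2, a neighbour of RGS5, had -1.82 and -2.55. HIGD1B lies between EFTUD2, at -0.90 and -0.67, and GJC1, the gap junction protein connexin 45 of vascular muscle, at 1.77 and 1.38. The assembly of that order is not the one used for the counts, so that no coordinates are given.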

How the data were processed

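Testis cells of 1 yak and 1 cattle-yak were read as UMI counts per gene and cell. The authors deposited these counts as filtered sparse matrices, unnormalised, from 10x libraries aligned to BosGru3.0 and counted with Cell Ranger (5.0.0 per the file headers, 2.1.1 per the submitters' processing notes). Kept cells lay within the mean ± 2 SD of genes and UMIs, with under 30% mitochondrial UMIs (37 features). Each library was clustered on its own with scanpy 1.11.5 (counts scaled to 10000 and logged, 2000 variable genes, 30 principal components, 15 neighbours, Leiden resolution 1). A cluster was named where at least 3 markers of a list were enriched (log2 of at least 1, UMIs in at least 10% of cells), unless another list had more markers among its 10 leading genes or at least 3 of these were cell cycle genes. Scrublet called 0 yak cells, so its calls separated no yak cells, and 251 (2.81%) cattle-yak cells. No cell was removed for its score in the main values. Whether the yak scores, used here as a top 10%, mark doublets was not tested.

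CPM intervals are exact Poisson, ratio intervals exact conditional binomial and shares exact binomial, all at 95% and from scipy 1.17.1. They cover counting error only, and 3 counts were taken as the floor. Ratios are of plain CPM, and log2 ratios have 1 CPM added to each side. Named genes are the 4 members, listed pathway genes past the fold or otherwise with most counts, and the 5 genes most like each member. The scripts were tested on simulated data. The members, gene lists and alternatives were chosen with earlier results of these data known, and the cell cycle rule and finer clusters after the clusters were seen. RefSeq supplied only the gene order. Sequences were not analysed here.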

Additional observations from a re-analysis of the deposited data

Results flagged for a closer look

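Cells outside the limits set on genes, UMIs or mitochondrial content, which enter no comparison above, held all 4 genes, when pooled, at levels above those of the kept cells. In the 1667 yak cells left out, KCNJ8 stood at 33.6 CPM, ABCC9 at 28.9 CPM, RGS5 at 282.2 CPM and HIGD1B at 346.0 CPM, against 16.3, 14.9, 228 and 201 CPM in the kept cells. In the 1838 cattle-yak cells left out, KCNJ8 stood at 13.5 CPM, ABCC9 at 22.0 CPM, RGS5 at 226.3 CPM and HIGD1B at 186.1 CPM, against 8.60, 9.94, 198 and 125 CPM. For RGS5 and HIGD1B in both libraries and KCNJ8 in cattle-yak, only the cells over the limits on genes or UMIs were above the kept cells. In cells with 30% or more mitochondrial UMIs, RGS5 and HIGD1B were at 189 and 180 CPM in yak, and KCNJ8, RGS5 and HIGD1B at 6.39, 114 and 118 CPM in cattle-yak, all below the kept cells. Yak KCNJ8 was at 25.1 CPM (18.5 to 33.4) there, and ABCC9 at 27.8 CPM in yak and 13.1 CPM in cattle-yak. These were above the kept cells, with overlapping intervals for ABCC9 in cattle-yak. These signals were noted because they lie in data outside the comparisons and above the limit that a count of 0 allows. The cells left out held 58.3% of the KCNJ8 and 56.7% of the ABCC9 UMIs of the yak library, and 51.1% and 59.7% of those of the cattle-yak library. Of the UMIs of all genes they held 24559603 of 60816600 and 17509867 of 43774841. When all cells were clustered without limits, 296 (37.5%) of the 790 yak cells over the limits on genes or UMIs alone fell in the mixed EC and pericyte cluster, with 701 KCNJ8 and 569 ABCC9 UMIs. Of 528 such cattle-yak cells 160 (30.3%) fell there, with 152 and 205 UMIs.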

How the results depend on the processing

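The 20 log2 ratios of the 4 genes (pericyte-like to other kept cells and to MC-like cells in each library, and cattle-yak to yak) were recomputed under 10 alternatives, 2 of them chosen after seeing the data, which gave 164 values: 110 stayed within the main interval, 54 moved outside it and 0 called values turned sign. Of the 110, 4 are yak values with the TRPC6-led cluster counted as MC-like, which could not change because yak had no such cluster. No paired analysis was possible because each group has 1 library, and no replicate could be left out. Values below are log2 ratios, genes in the order KCNJ8, ABCC9, RGS5, HIGD1B unless named, and the cause of each change was not tested. With a mitochondrial share below 20% the cattle-yak library had no pericyte-like cluster and gave no value. The yak cells so named were 824 in place of 223, so that they included cells outside the main pericyte-like cluster. They gave 4.31 for KCNJ8, 3.76 for RGS5 and 4.88 for HIGD1B against other cells, and 3.86, 3.67, 1.10 and 4.01 against MC-like cells. With no limit on genes or UMIs the ratios to other cells were 2.73, 3.15, 2.99 and 3.19 in yak and 2.80, 2.85, 3.15 and 3.22 in cattle-yak. At resolution 0.5 the yak pericyte-like cluster took in the mixed cells (530 cells) and gave 4.72, 4.80, 3.56 and 5.08 to other cells, 4.39, 1.14 and 4.19 to MC-like cells for ABCC9, RGS5 and HIGD1B, and -0.071, 0.48 and -0.19 for these between the libraries. The cattle-yak cluster did not take in its mixed cells (105 cells), so that these values between the libraries compare unlike sets of cells. At resolution 2 the yak ratios to MC-like cells were 2.25 for RGS5 and 6.58 for HIGD1B. Without mitochondrial genes RGS5 and HIGD1B were at 3.43 and 4.04 to other yak cells. With every cell weighted equally the ratios to other cells were 4.36, 4.79, 3.83 and 4.82 in yak and 4.08, 4.16, 4.14 and 4.52 in cattle-yak. With no gene left out of clustering they were 4.02 for HIGD1B to other yak cells, 1.56 and 4.42 for RGS5 and HIGD1B to yak MC-like cells and -0.78 for HIGD1B between the libraries. Without the 10% highest doublet scores they were 3.45 and 4.06 for RGS5 and HIGD1B to other yak cells and 3.37 for RGS5 to cattle-yak MC-like cells. Without the mixed cluster among the other cells (added) they were 4.98, 5.41, 4.00 and 5.52 in yak and 4.59, 4.59, 4.08 and 5.04 in cattle-yak. With the TRPC6-led cluster counted as MC-like (added) RGS5 was at 2.05 and HIGD1B at 3.62 in cattle-yak.

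Thinned to 500 UMIs, the shares of yak pericyte-like cells were 8.07%, 8.97%, 54.7% and 58.3%, and those of cattle-yak 60.6% for RGS5 and 38.5% for HIGD1B. Without thinning they were 38.6%, 47.1%, 94.2% and 94.2% in yak and 25.0%, 36.5%, 97.1% and 88.5% in cattle-yak. With at least 30 summed counts in place of 100, the genes past the fold were 634 higher and 639 lower to MC-like (from 294 and 336) and 773 higher to EC-like (from 410) in yak. In cattle-yak they were 651 higher and 3608 lower to other cells (from 394 and 2025), 464 and 687 to MC-like (from 155 and 311) and 532 higher to EC-like (from 218). Between the libraries 359 (from 99) were lower in pericyte-like and 265 (from 104) in mixed cells. Low counts limit the cattle-yak values, with 39 KCNJ8 UMIs in 104 pericyte-like cells, 5 in MC-like cells and 2 ABCC9 UMIs in EC-like cells.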

Other observations

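The unnamed cell cycle clusters and contractile cells of other kinds held the members at levels below those of pericyte-like cells. In the unnamed cell cycle clusters (76 yak and 135 cattle-yak cells) KCNJ8 stood at 22.0 and 6.92 CPM, ABCC9 at 12.0 and 12.5 CPM, RGS5 at 68.1 and 222 CPM and HIGD1B at 80.2 and 126 CPM. KCNJ8 and ABCC9 together had 17 and 14 UMIs there, and 2 of the yak cells held all 4 members. T/NK markers summed to 4149 CPM in the yak cluster. Of these cells 7.89% in yak and 23.0% in cattle-yak were in the top 10% of doublet scores. The part of mixed cells in these levels was not tested. In the unnamed contractile clusters led by TNNI1, a slow skeletal troponin, RGS5 stood at 39.4 and 18.5 CPM and HIGD1B at 88.3 and 48.2 CPM in yak and cattle-yak. KCNJ8 was at 3.99 and 11.3 CPM there, and ABCC9 at 3.49 and 3.22 CPM. In stromal-like cells there were 2.32 HIGD1B UMIs per RGS5 UMI in yak and 1.84 in cattle-yak, against 1.18 and 0.756 in pericyte-like cells. The RGS5 level of the cattle-yak stromal-like cells, 12.3 CPM, was near the 11.1 CPM of T/NK-like cells. Among the cells over the limits on genes or UMIs, the 219 that were germ-like in cattle-yak held 74 ABCC9 UMIs (12.7 CPM) and 4 of KCNJ8.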
